A study of Mus musculus with 6 samples.

Results

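The nuclear genes of oxidative phosphorylation were taken from the gene-level RNA-seq tables of the series by symbol. They comprised every gene whose symbol begins with Nduf, Uqcr, Cox4 to Cox8 or Atp5, together with Sdha to Sdhd, Cyc1 and Cycs, which gave 94 of the 24411 symbols listed. The tissue was the sensory epithelium of the mouse cochlea at postnatal day 9, before the onset of hearing. In mice of the Kir2.1-OE group, genotype Otof rtTA+/−; Kir2.1+/−, a tetracycline-responsive transgene for the inward rectifier K+ channel Kir2.1 was switched on by rtTA, which the Otof promoter expresses mainly in the inner hair cells (IHCs). Controls were littermates that carried rtTA but not the transgene (Otof rtTA+/−; Kir2.1+/+). Both genotypes were C57BL/6N and both drank water with doxycycline (DOX, 0.5 mg/ml), so that DOX and rtTA were common to both. Each genotype was represented by 3 pools, and each pool held 8 cochleae from 4 mice. The transgene was therefore driven in a minority cell type, whereas the RNA was extracted from the whole epithelium, in which a smaller number of cells and less RNA per cell cannot be told apart. The comparison asked how the expression of the respiratory chain differed when intrinsic Ca2+ spiking in the IHCs was suppressed by the overexpressed channel. The paper found that these IHCs still responded to Ca2+ waves from the nonsensory cells.

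Oxidative phosphorylation is carried out by 5 protein complexes of the inner mitochondrial membrane. Complex I oxidises NADH and complex II oxidises succinate. Both pass electrons through ubiquinone to complex III, from there through cytochrome c to complex IV, where oxygen is reduced, and the proton gradient built up on the way drives ATP synthesis by complex V. Except for complex II, each complex also contains subunits encoded by mitochondrial DNA, which were not analysed here. Hair cells depend on mitochondrial ATP and Ca2+ uptake to sustain ion transport and transmitter release.

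Nuclear respiratory genes share promoter motifs, of which 3 were searched in the promoters of the members as a description. The windows were those of RefSeq (build GRCm38.p6), from 250 bases before to 50 bases after each start site. The letters searched were gcgcatgc for the core of the NRF1 motif, ccggaag for the core bound by ETS factors such as GABP, and aagatggcg for YY1, on both strands. The letters of the last pair could share aag, but no window of a member or of any other gene held them overlapping. Promoters were matched for 77 of the 94 members, which had 83 windows. At least 1 of the motifs was present in 33 of the 83 windows (39.8%), compared with 12.1% of all 32851 promoter windows. The NRF1 core occurred in 15.7% of the members' windows and 2.71% of all windows, the ETS core in 20.5% and 8.86%, and the YY1 motif in 10.8% and 1.40%. Among the 11539 matched genes that were tested for expression, 24.1% held at least 1 motif, compared with 41.6% of the 77 members. For the NRF1 core these shares were 5.45% and 16.9%, for the ETS core 17.65% and 22.1%, and for YY1 3.11% and 10.4%. These matches describe letters in a window and not occupied sites.

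For each complex, the promoter that held the most kinds of motif is shown 5′ to 3′ on the strand of the gene, with ties decided by the lower fold change. Capitals mark the motif letters, which are the YY1 motif in Ndufs6 and both the NRF1 and ETS cores in the other four.
Ndufs6 (chr13:73328433-73328732, minus strand): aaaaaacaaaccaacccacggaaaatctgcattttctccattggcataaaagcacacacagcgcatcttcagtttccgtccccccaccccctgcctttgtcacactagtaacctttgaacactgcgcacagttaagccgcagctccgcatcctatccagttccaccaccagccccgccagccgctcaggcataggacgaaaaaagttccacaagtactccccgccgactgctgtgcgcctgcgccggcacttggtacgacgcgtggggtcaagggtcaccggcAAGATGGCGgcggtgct
Sdhb (chr4:140961021-140961320, plus strand): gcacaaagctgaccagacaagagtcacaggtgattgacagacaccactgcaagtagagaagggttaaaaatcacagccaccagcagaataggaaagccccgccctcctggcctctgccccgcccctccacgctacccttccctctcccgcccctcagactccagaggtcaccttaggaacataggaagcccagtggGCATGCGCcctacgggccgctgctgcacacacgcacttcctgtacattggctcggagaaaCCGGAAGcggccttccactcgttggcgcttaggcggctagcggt
Uqcr11 (chr10:80406772-80407071, minus strand): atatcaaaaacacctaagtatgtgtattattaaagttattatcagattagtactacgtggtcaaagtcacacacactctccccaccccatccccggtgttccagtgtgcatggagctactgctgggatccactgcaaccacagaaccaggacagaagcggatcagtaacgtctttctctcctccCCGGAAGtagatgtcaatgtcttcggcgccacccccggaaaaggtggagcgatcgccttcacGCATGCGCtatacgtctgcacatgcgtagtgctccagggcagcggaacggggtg
Cox6a1 (chr5:115348909-115349208, minus strand): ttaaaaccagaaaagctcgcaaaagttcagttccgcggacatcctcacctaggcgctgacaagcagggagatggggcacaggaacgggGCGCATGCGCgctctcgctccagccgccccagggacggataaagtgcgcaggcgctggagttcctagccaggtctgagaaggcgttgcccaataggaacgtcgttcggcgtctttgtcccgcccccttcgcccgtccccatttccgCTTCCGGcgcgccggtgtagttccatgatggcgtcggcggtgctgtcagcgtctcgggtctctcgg
Atp5k (chr5:108434350-108434649, minus strand): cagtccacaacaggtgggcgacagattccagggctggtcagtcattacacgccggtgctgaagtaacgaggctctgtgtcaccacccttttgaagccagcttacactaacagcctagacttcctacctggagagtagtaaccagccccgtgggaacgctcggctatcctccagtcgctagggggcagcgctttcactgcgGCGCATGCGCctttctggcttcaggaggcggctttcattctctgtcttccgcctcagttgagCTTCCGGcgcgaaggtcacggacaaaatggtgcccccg
The NRF1 core lay 54 bases before the start in Sdhb, and forward and reverse copies overlapped in Cox6a1 and Atp5k, where the same letters read GCGCATGCGC. In Ndufs6 the YY1 motif began 33 bases after the start. The median log2 fold change (Kir2.1-OE/control) was −0.52 in the 13 tested members with the NRF1 core and −0.52 in the 63 without it, and −0.57 in the 17 with the ETS core against −0.51 in the 59 without it. It was −0.51 in the 8 with the YY1 motif and −0.52 in the 68 without it. The number called lower, as defined below, was 2 of 13 with the NRF1 core against 18 of 63 without it. It was 8 of 17 with the ETS core against 12 of 59, and 1 of 8 with the YY1 motif against 19 of 68; these differences were not tested.

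The sequencing gave 35430940 to 41205047 reads assigned to genes per library. Kcnj2, the gene of Kir2.1 (ENSMUSG00000041695.2, mm10 chr11:111066164-111076821), gave normalised counts of 3612, 3813 and 2213 in Kir2.1-OE pools 1, 2 and 3 and of 236, 228 and 226 in control pools 1, 2 and 3. Its values were far apart in the 2 genotypes and matched the labels of all 6 libraries (log2 fold change 3.80 ± 0.20, SE; adjusted p = 7.0e-05). The test here and throughout was the edgeR quasi-likelihood test on all 15303 genes that passed the filter on low counts, with Benjamini-Hochberg adjustment over these genes. A gene was called lower or higher when the adjusted p was below 0.05 and the fold change above 1.5, and was said to have passed when the adjusted p alone was below 0.05. As defining markers of the tissue, Otof, Slc17a8, Myo7a, Slc26a5 and Gjb2 were present in every library.

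The nuclear oxidative phosphorylation genes took a smaller share of the reads in Kir2.1-OE than in control epithelium. Their share was 1.00%, 1.08% and 1.19% in the 3 Kir2.1-OE pools (1.09% ± 0.10, SD, n = 3) and 1.58%, 1.47% and 1.5% in the 3 control pools (1.52% ± 0.06, n = 3). The groups did not overlap. Complex V, the ATP synthase, took the most reads of the 5 complexes in both genotypes, at 0.42% ± 0.04 in Kir2.1-OE and 0.56% ± 0.03 in controls (SD, n = 3 each). Complex I took 0.25% ± 0.02 and 0.36% ± 0.01, and complex IV took 0.22% ± 0.02 and 0.32% ± 0.01. Within the Kir2.1-OE group the share was lowest in pool 1 and highest in pool 3 for each of the 5 complexes.

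**Figure D1:**
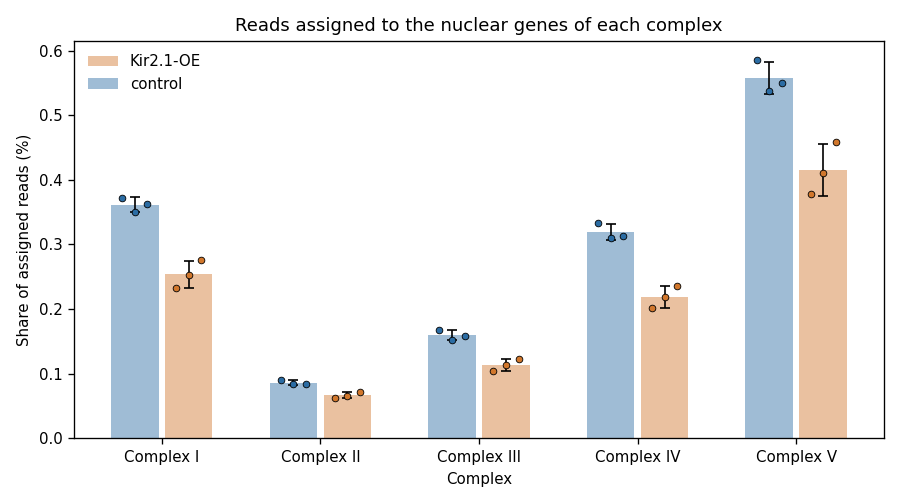
Share of the assigned reads (%, y axis) taken by the nuclear genes of complexes I to V (x axis) in control and Kir2.1-OE epithelium. Bars are means, error bars SD and points the 3 pools of each genotype. The groups did not overlap in any complex, and complex V moved from 0.56% in controls to 0.42% in Kir2.1-OE.

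Of the 94 members, 91 passed the filter and were tested. All 91 had a log2 fold change below 0, with a median of −0.52 and a range from −0.82 (Atp5e) to −0.04 (Ndufs1), whereas the median of all 15303 genes was 0.01. Of the 91, 25 members, spread over the 5 complexes, were called lower, compared with 5.08% of all genes tested. None was called higher (0 of 91), compared with 15.5% of all genes. At any fold change, 78 members passed in the lower direction and 0 in the higher, where 23.5% and 27.3% of all genes did. In 82 of the 91, the 3 Kir2.1-OE values all lay below the 3 control values, against 29.9% of all genes. The call depended on single libraries: without Kir2.1-OE pool 1, 8 members were called lower, 7 of them among the 25, and without Kir2.1-OE pool 3, 44 were, 24 of them among the 25. Of the 25, 6 were called lower whichever library was left out, namely Atp5e, Atp5k, Cox7a2l, Ndufa1, Ndufa2 and Uqcrh.

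**Figure D2:**
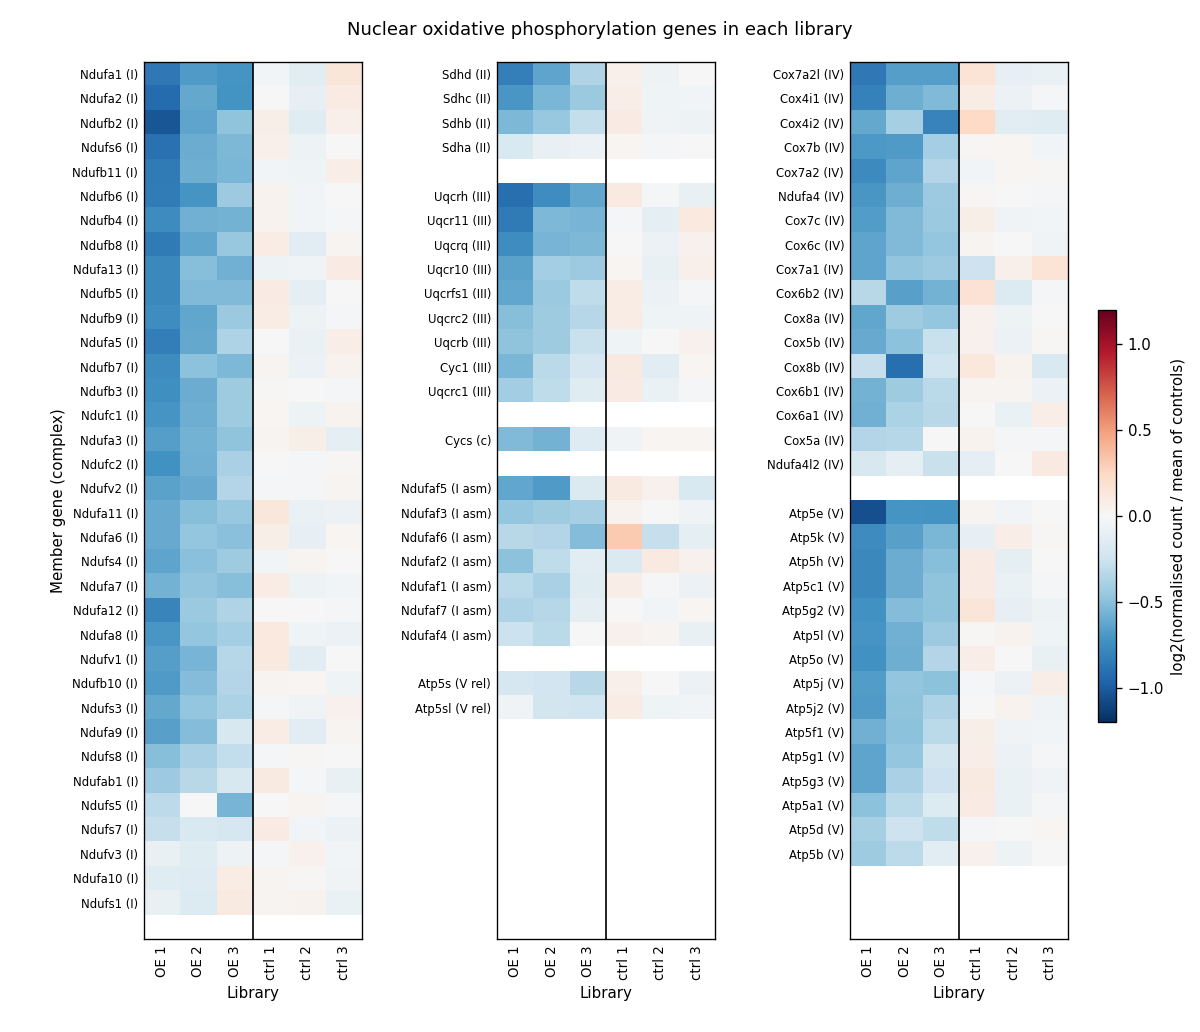
Level of 90 of the 91 tested members (rows) in the 6 libraries (columns), as log2 of the normalised count over the mean of the controls. Brackets give the complex, with asm for an assembly factor and c for cytochrome c. The mark rel stands for an Atp5 symbol that is not a subunit of complex V. The median over all 91 was −0.64, −0.50 and −0.39 in Kir2.1-OE (OE) pools 1, 2 and 3 and between −0.04 and 0.04 in the control (ctrl) pools.

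The members' transcripts are short, and across all genes the fold change rose with transcript length. Spearman's rho between length and log2 fold change was 0.58 over 15197 genes with a length and 0.44 over the 91 members, given as a description since genes of the same libraries are not independent. With the offset described below, rho was 0.04 over all genes and −0.50 over the members. Among genes with transcripts under 600 nucleotides (nt), 39.4% were called lower and the median log2 fold change was −0.56; the median of the 23 members in that class was −0.55. From 600 to 1000 nt the medians were −0.48 for all genes and −0.54 for 29 members. In longer classes the median of the members lay further below the other genes. From 1000 to 1500 nt the medians were −0.35 and −0.48 (15 members), from 1500 to 2500 nt they were −0.17 and −0.41 (17 members), and from 2500 to 4000 nt they were 0.02 and −0.25 (6 members).

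When the fit was given offsets for each gene's transcript length and GC content, most calls on the members were lost. Of the 91, 2 members were called lower, compared with 3.36% of all genes, and 0 were called higher, compared with 5.71%. The median over members moved to −0.13, with −0.06 over all genes, and 68 members had a negative and 23 a positive log2 fold change. At any fold change, 24 members passed in the lower direction where 21.0% of all genes did, and 2, Cox5a and Uqcrb, passed in the higher direction where 12.0% did. What gave the dependence on length, and its part in the lower levels, was not tested.

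**Figure D3:**
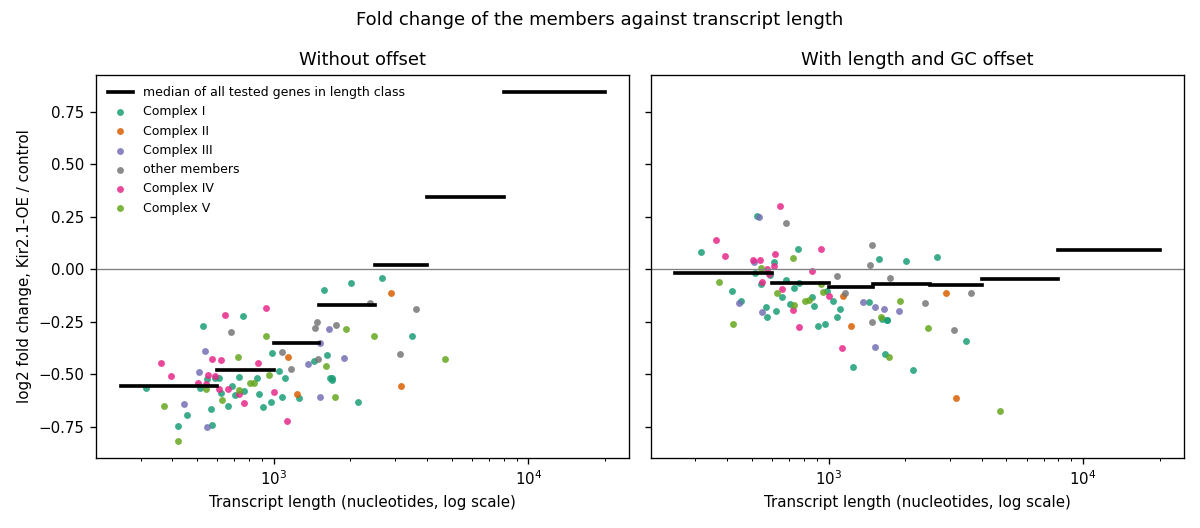
Log2 fold change (Kir2.1-OE/control, y axis) of each tested member against transcript length (x axis, log scale), without (left) and with (right) the length and GC offset. Points are coloured by complex and horizontal bars give the median of all tested genes in a length class, the shortest and the longest class being open at the ends. Without the offset the median of the members was near the bars below 1000 nt and under them from 1000 to 4000 nt; with it the 2 lowest points were Atp5g1 at −0.68 and Sdhc at −0.61.

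Both members called with the offset have long annotated transcripts. Sdhc encodes a membrane anchor of complex II, and its normalised counts were 5739, 6374 and 6817 in the Kir2.1-OE pools and 9849, 8940 and 9097 in the control pools. Its log2 fold change was −0.56 ± 0.08 (SE; adjusted p = 6.9e-04) without and −0.61 (adjusted p = 0.0016) with the offset, for a transcript of 3171 nt. Atp5g1, named here after its value was seen, encodes the c subunit of the ATP synthase ring and gave 3391, 3826 and 4533 in Kir2.1-OE against 5557, 5010 and 5230 in controls. The groups did not overlap for either gene. The result for Atp5g1 depended on the transcript taken: the log2 fold change was −0.68 with the longer curated transcript (4715 nt) and −0.05 (adjusted p = 0.69) with the shorter one (596 nt), against −0.43 without an offset. With the offset, Sdhc was not called when Kir2.1-OE pool 1 or control pool 1 was left out, and Atp5g1 was not called without Kir2.1-OE pool 1.

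Complex I, the NADH dehydrogenase, contributed 36 subunit genes, of which 13 were called lower, 32 passed in that direction at any fold change and 0 were called higher (median log2 fold change −0.53). With the offset 0 were called and 12 passed lower (median −0.15). Without Kir2.1-OE pool 1 the 13 became 2, and without Kir2.1-OE pool 3 they became 23. Ndufa1, an X-linked membrane-arm subunit (chrX:37187588-37191163), had the lowest fold change and the highest level per length of this complex. Its normalised counts were 2456, 2779 and 2741 in Kir2.1-OE and 4373, 4065 and 4951 in controls, which was 40.4% lower (log2 fold change −0.75 ± 0.09; adjusted p = 2.6e-04). Every Kir2.1-OE value was below every control value, but with the offset its log2 fold change was −0.10 (adjusted p = 0.36). Ndufa2, an accessory subunit of the NADH-oxidising arm, gave 2114, 2627 and 2448 against 3992, 3747 and 4296. It was 40.3% lower (−0.74 ± 0.09; adjusted p = 3.0e-04), and with the offset it passed at −0.23 (adjusted p = 0.044) without reaching the fold threshold.

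The Ndufb genes encode accessory subunits of the membrane arm, and all 10 of them passed in the lower direction, 8 with the call (Ndufb2, Ndufb4 to Ndufb9 and Ndufb11). Their log2 fold changes ran from −0.70 (Ndufb2) to −0.51 (Ndufb10), and 5 of the 10 passed with the offset (median −0.18). Ndufb2 had 851, 1113 and 1237 normalised counts in Kir2.1-OE and 1815, 1562 and 1807 in controls. Ndufb8 held −0.48 with the offset (adjusted p = 0.0053), when its longer curated transcript of 2142 nt was used; a shorter one has 680 nt.

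Ndufs1, the largest iron-sulphur subunit, had the highest log2 fold change of complex I. Its normalised counts were 3774, 3586 and 4323 in Kir2.1-OE and 4093, 4133 and 3801 in controls, so that the groups overlapped (−0.04 ± 0.08; adjusted p = 0.70). Ndufa10, an accessory subunit, was next at 2496, 2488 and 2945 against 2834, 2792 and 2681 (−0.07 ± 0.08; adjusted p = 0.52). Both overlapped because Kir2.1-OE pool 3 was the highest of the 6 libraries. Ndufs5 (−0.27; adjusted p = 0.092) and Ndufv3 (−0.10; adjusted p = 0.24) were the other subunits of complex I that did not pass. The 7 assembly factors named Ndufaf1 to Ndufaf7, which build complex I without being part of it, had a smaller median of −0.30, and 4 passed in the lower direction with 0 called. Ndufaf5 was lowest at −0.48 (adjusted p = 0.025), although its groups overlapped.

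Complex II, the succinate dehydrogenase, is the only complex encoded entirely by nuclear genes, and all 4 of its subunits were measured. Sdhd, the second membrane anchor, was called lower, with 3761, 4270 and 5155 in Kir2.1-OE and 6933, 6353 and 6618 in controls (−0.59 ± 0.11; adjusted p = 0.0018). This call was lost without Kir2.1-OE pool 1 and without control pool 1, and with the offset the value was −0.27 (adjusted p = 0.048). Sdhb, the iron-sulphur subunit, passed below the fold threshold, with 2917, 3090 and 3479 against 4526, 4108 and 4051 (−0.42 ± 0.08; adjusted p = 0.0029). Sdha, the flavoprotein that oxidises succinate, had 10730, 11447 and 11618 against 12372, 12055 and 12152. Its 3 Kir2.1-OE values were all below the controls, but the difference did not pass (−0.11 ± 0.07; adjusted p = 0.19). The membrane anchors Sdhc and Sdhd thus lay at −0.56 and −0.59 and the catalytic Sdhb and Sdha at −0.42 and −0.11, whereas with the offset the order was Sdhc, Sdhd, Sdhb and Sdha at −0.61, −0.27, −0.13 and −0.12.

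In complex III, the cytochrome bc1 complex, all 9 genes passed in the lower direction, 3 with the call (median −0.45). With the offset 1 passed lower (Uqcrq, −0.37), 1 passed higher (Uqcrb, 0.25; adjusted p = 0.024) and 0 were called (median −0.18). Uqcrh, the hinge protein that binds cytochrome c1, was both the most abundant per length and the lowest. Its normalised counts were 5128, 5720 and 6218 in Kir2.1-OE and 10340, 9425 and 9017 in controls, 40.7% lower (−0.75 ± 0.09; adjusted p = 2.6e-04). Uqcr11, a small accessory subunit, followed with 2869, 3564 and 3510 against 5138, 4765 and 5627 (−0.64 ± 0.10; adjusted p = 8.2e-04). With the offset Uqcrh was −0.20 (adjusted p = 0.061) and Uqcr11 −0.16 (adjusted p = 0.14).

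The electron-carrying and core subunits of complex III passed but did not reach the fold threshold. With the offset Cyc1, Uqcrc1, Uqcrc2 and Uqcrfs1 were at −0.18, −0.19, −0.20 and −0.16, near Uqcrh and Uqcr11. Without it, Cyc1, cytochrome c1, gave 3526, 4126 and 4487 in Kir2.1-OE and 5573, 4688 and 5235 in controls (−0.35 ± 0.10; adjusted p = 0.017). Uqcrc1, a core protein, gave 6470, 7010 and 7810 against 9248, 8193 and 8525, which was the highest log2 fold change of the complex at −0.29 ± 0.09 (adjusted p = 0.022). Uqcrfs1, the Rieske iron-sulphur protein, was at −0.45 (adjusted p = 0.0030). Cycs, the mobile carrier cytochrome c that links complexes III and IV, had 4360, 4243 and 5642 normalised counts against 6088, 6373 and 6396. It passed without reaching the fold threshold (−0.40 ± 0.11; adjusted p = 0.011) and passed with the offset (−0.29; adjusted p = 0.028).

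Of the 20 genes of complex IV, cytochrome c oxidase, 17 were tested, 14 passed in the lower direction and 4 were called lower (median −0.51). With the offset the median was 0.00, 0 were called, 2 passed lower (Cox7a2l and Cox4i1) and 1 passed higher (Cox5a). Cox4i1, the general isoform of subunit 4, had the highest level per length of the 94 members in controls, with 840.5 ± 48.5 CPM per kilobase of transcript (CPM/kb) in controls and 540.3 ± 55.1 in Kir2.1-OE (SD, n = 3 each). Its normalised counts were 13725, 16090 and 16726 against 25680, 22977 and 23745 (−0.64 ± 0.09; adjusted p = 5.9e-04), and with the offset it was at −0.27 (adjusted p = 0.025). Cox7a2l, described as a factor for supercomplexes of complexes III and IV (a role not examined in this strain), was the lowest. It had 6948, 7984 and 7949 normalised counts against 14101, 11748 and 11944. It was 39.5% lower (−0.72 ± 0.10; adjusted p = 3.8e-04) and remained at −0.38 with the offset (adjusted p = 0.010). No library of one group reached the values of the other for either gene.

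Cox5a, one of the 2 nuclear subunits numbered 5, showed the least change of the abundant subunits of complex IV. It had 3719, 3724 and 4760 in Kir2.1-OE and 4870, 4655 and 4675 in controls, where pool 3 of the Kir2.1-OE group lay within the control range (−0.22 ± 0.10; adjusted p = 0.094). With the offset it passed in the higher direction at 0.30 (adjusted p = 0.025). The general isoforms Cox8a, Cox6c, Cox7c and Cox6a1, all with transcripts of 503 to 571 nt, had log2 fold changes of −0.50, −0.54, −0.55 and −0.43 without the offset and of −0.06, 0.04, 0.04 and 0.00 with it. Ndufa4, once assigned to complex I and now counted as a subunit of complex IV, had 5141, 5530 and 6130 against 8423, 8349 and 8188 (−0.57 ± 0.08; adjusted p = 4.9e-04; 0.01 with the offset).

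Several subunits of complex IV have a second isoform that is restricted to muscle, lung, testis or hypoxic tissue. These isoforms were low here. Cox4i2 had 227, 263 and 199 normalised counts in Kir2.1-OE and 410.3, 317 and 314 in controls and was called lower (−0.60; adjusted p = 0.012), with groups that did not overlap. Cox7a1 had 210.4 to 242 in Kir2.1-OE and 275 to 365 in controls, and Cox6b2 had 122 to 152 and 171 to 215. Cox8b had 26.0 to 41.3 and 42.8 to 53.2. Cox6a2, Cox7b2 and Cox8c failed the filter. The normalised count of Cox6a2 was at most 6.16 and that of Cox7b2 at most 3.08 in any library. Cox8c, a testis isoform, had 0 counts in all 6 libraries, which allows a share of at most 8.5e-06% of the reads in the shallowest of them (3 counts; counting error only).

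The ratio of a restricted to a general isoform within a library was compared for 6 pairs by an exact two-sided permutation test, in which 3 pools against 3 cannot give a p below 0.10. For Ndufa4l2 over Ndufa4, the hypoxia-induced and the general form, log2 of the ratio was −4.63, −4.66 and −4.96 in Kir2.1-OE and −5.27, −5.13 and −5.01 in controls. The ratio was higher in 3 of 3 Kir2.1-OE pools than in any control pool, by 0.39 on the log2 scale (exact permutation p = 0.10, the smallest possible; 0.60 after adjustment over the 6 pairs). Normalised counts of Ndufa4l2 itself were 207, 219 and 197 against 218, 237 and 254 (−0.19; adjusted p = 0.26), on a transcript of 934 nt against 610 nt for Ndufa4. With the offset the log2 fold changes of Ndufa4l2 and Ndufa4 were 0.09 and 0.01. For the other 5 pairs (Cox4i2/Cox4i1, Cox6a2/Cox6a1, Cox6b2/Cox6b1, Cox7a1/Cox7a2 and Cox8b/Cox8a) the differences in log2 ratio were 0.05, 0.25, −0.07, 0.08 and 0.04, with p from 0.60 to 1.00 by the exact permutation test. Their groups overlapped in each case.

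Complex V, the ATP synthase, was represented by 15 genes, all of which passed in the lower direction, and 4 of which were called lower (median −0.54). With the offset 1 was called (Atp5g1) and 5 passed lower (median −0.15). Atp5e, the epsilon subunit of the rotor, had the lowest log2 fold change of all members. It gave 4792, 6110 and 6063 normalised counts in Kir2.1-OE and 10173, 9703 and 9999 in controls, 43.2% lower (−0.82 ± 0.10; adjusted p = 2.6e-04), and −0.26 with the offset (adjusted p = 0.028). Atp5k, the small membrane subunit e, followed with 1215, 1305 and 1407 against 1916, 2172 and 2082 (−0.65 ± 0.08; adjusted p = 3.2e-04). With the offset it was at −0.06 (adjusted p = 0.59). Atp5h, subunit d of the peripheral stalk, and Atp5c1, the gamma subunit of the rotor, were the other members called, at −0.62 and −0.61.

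The alpha and beta subunits of complex V, where ATP is formed, were among the most abundant members. The median log2 fold change of the 5 subunits of its F1 part (Atp5a1, Atp5b, Atp5c1, Atp5d and Atp5e) was −0.32 against −0.54 in the 10 others, and this order turned with the offset (−0.26 against −0.13); the difference was not tested. Atp5b, the beta subunit that forms ATP, had 38491, 41528 and 47184 in Kir2.1-OE and 53556, 49674 and 51976 in controls. Its groups did not overlap, and the log2 fold change was small (−0.29 ± 0.09; adjusted p = 0.025; −0.15 with the offset, adjusted p = 0.19). Atp5a1, the alpha subunit, gave 31457, 35338 and 39338 against 47276, 41744 and 43428 (−0.32 ± 0.10; adjusted p = 0.021; −0.28 with the offset, adjusted p = 0.043). Atp5d, the delta subunit, gave 8106, 8991 and 8660 against 10491, 10689 and 10900 (−0.32 ± 0.07; adjusted p = 0.0047). The paralogues Atp5g1, Atp5g2 and Atp5g3 encode the same mature c subunit and were at −0.43, −0.58 and −0.42, but their shared coding sequence makes the division of reads among them uncertain. Atp5s and Atp5sl, which are not subunits of the enzyme, did not pass (−0.25 and −0.16).

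**Figure D4:**
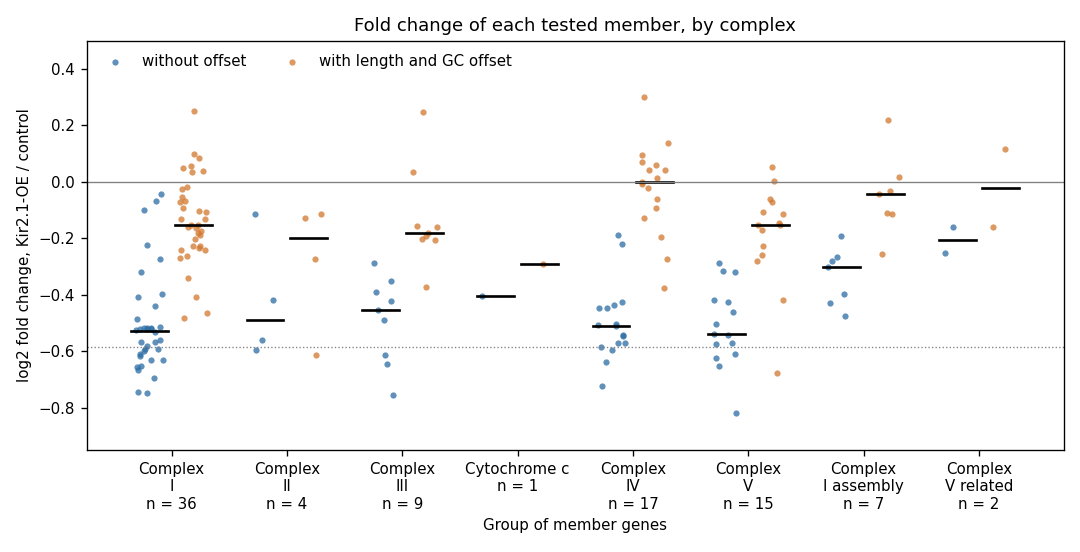
Log2 fold change (Kir2.1-OE/control, y axis) of each tested member by complex (x axis), without (blue) and with (orange) the length and GC offset. The group marked complex V related holds Atp5s and Atp5sl, which are not subunits of complex V. Points are genes, black bars medians and the dotted line a fold change of 1.5 downwards; the medians of complexes I to V ran from −0.54 to −0.45 without the offset and from −0.20 to 0.00 with it.

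Per length, the complexes differed in level within the control epithelium. The median over genes was 282.2 CPM/kb for complex V, 180.2 for complex IV, 140.5 for complex III, 105.3 for complex II and 100.9 for complex I, while the assembly factors of complex I had a median of 12.0. After Cox4i1, the highest levels were those of Atp5b (719.4 ± 27.1), Cox8a (707.6 ± 26.5), Atp5e (630.2 ± 15.0) and Cox6c (604.3 ± 15.7; all SD, n = 3). Atp5b and Cox8a differed by less than their spread. In Kir2.1-OE epithelium the mean of Atp5b (589.6 ± 61.3) was the highest, with Cox4i1 next (540.3 ± 55.1), a difference that was also within the spread. These levels use the longest curated transcript of each gene, so that a gene read mainly from a shorter transcript, as is possible for Atp5g1, would be given too low a level. The 94 genes lay on 19 chromosomes, with 3 on the X chromosome (Ndufa1, Ndufb11 and Cox7b). All 3 were called lower without the offset, compared with 5.08% of all genes tested. With the offset they were at −0.10, −0.27 and −0.13 and were not called.

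The factors that assemble the complexes also tended to values below 0, but few were called. Over all genes tested, 5.08% were called lower and 15.5% higher. Of 7 complex I factors outside the Nduf names 1 was called lower, the iron-sulphur carrier Nubpl, with 316, 246 and 339 against 487, 503 and 444 (−0.67; adjusted p = 0.0031). Of 4 complex II factors Sdhaf4 was called lower (−0.70; adjusted p = 2.6e-04), and of 6 complex III factors Uqcc2 was (−0.65; adjusted p = 2.3e-04). The highest values in the first 3 lists were those of Tmem186 (−0.09), Sdhaf2 (−0.25) and Ttc19 (0.07). Of 20 complex IV factors Cox14 and Cox16 were called lower (−0.62 and −0.63) and Pet117 higher, with 44.1, 46.0 and 32.8 counts against 20.1, 24.5 and 25.4 (0.81; adjusted p = 0.039). None of the 4 complex V genes was called, from Atpif1, the inhibitor of the synthase, at −0.45 to Atpaf1 at −0.04. With the offset 0 genes of these lists were called lower, and Pet117 was called higher (1.23).

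Of 13 genes that control transcription of the nuclear or mitochondrial genome for respiration, 2 were called higher and 1 lower. The shares over all genes tested were 15.5% and 5.08%. Ppargc1a, the coactivator PGC-1alpha, had 879.6, 574 and 1048 normalised counts in Kir2.1-OE and 360.2, 413 and 382 in controls. All its Kir2.1-OE values lay above the controls, which also held for 4844 of the 15303 genes tested. It was called higher without (1.11, adjusted p = 0.0014) and with the offset (0.80). Its homologue Ppargc1b rose by 0.98 (adjusted p = 0.026), from 27.5 to 69.2 counts in controls to 83.9 to 109 in Kir2.1-OE, and was not called with the offset (0.61). Tfb1m, a methyltransferase of the mitochondrial ribosome, was called lower (−0.59; adjusted p = 0.011; not called with the offset). Nrf1, Gabpa and Yy1, whose motifs were searched above, were at 0.14, −0.01 and 0.08, and none of these passed. With the offset Yy1 turned to −0.51 and passed in the lower direction (adjusted p = 0.0016). Gabpb1, the partner of Gabpa, passed at −0.28 (adjusted p = 0.014; −0.41 with the offset). Tfam, which packages and transcribes mitochondrial DNA, passed at −0.43 (adjusted p = 0.0017), on a transcript of 4167 nt.

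Enzymes of neighbouring pathways were less uniform. For comparison, 5.08% of all genes tested were called lower and 15.5% higher, and 23.5% and 27.3% passed at any fold change. None of 13 citrate cycle genes was called; 4 passed lower and 1, Ogdh, passed higher (0.25), with a median of −0.17 and Suclg2 the lowest at −0.38. Of 15 glycolytic genes, Pfkp and Hk2 were called higher (0.90 and 0.59) and 0 lower; the lowest was Ldha at −0.53 (adjusted p = 0.0011). With the offset Pfkp was called (0.68) and Hk2 was at 0.06. Of 7 carriers and outer membrane proteins, 6 passed in the lower direction and 0 were called, from Vdac3 at −0.55 to Vdac1 at −0.06; with the offset Tomm20 was called lower (−0.72).

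**Figure D5:**
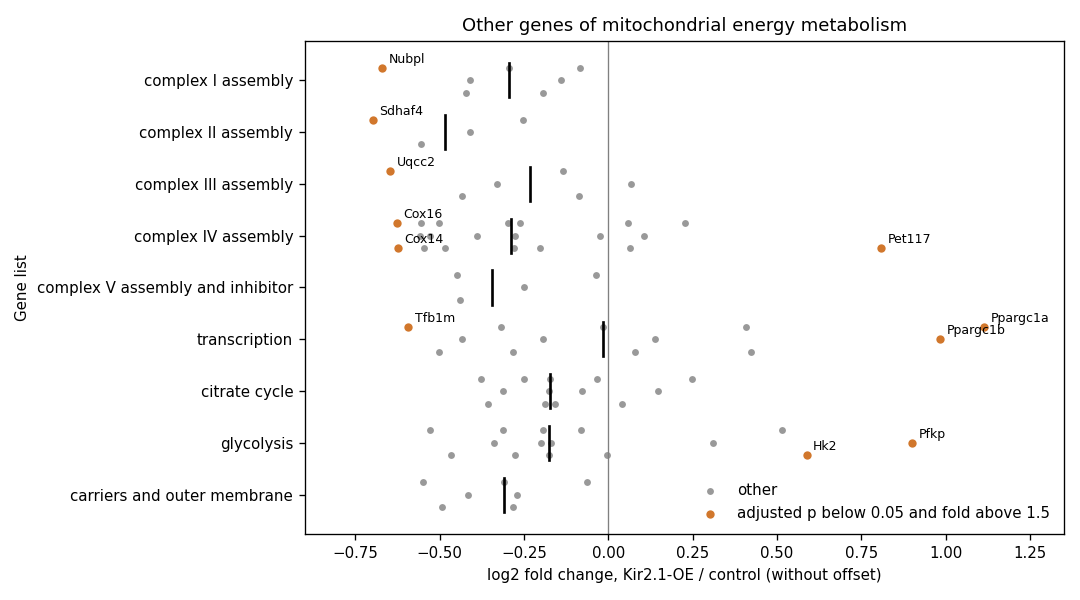
Log2 fold change (Kir2.1-OE/control, x axis, without offset) of the other genes of mitochondrial energy metabolism by list (y axis). Points are genes, black bars medians of a list, and orange named points the genes called lower or higher, of which Ppargc1a was highest at 1.11 and Sdhaf4 lowest at −0.70.

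The lower level was not particular to the respiratory chain. Over all genes tested, 5.08% were called lower without and 3.36% with the offset. Of the 85 tested cytosolic ribosomal protein genes, which also have short transcripts (median 833 nt), 77 were called lower with a median of −0.79. Of the 77 mitochondrial ribosomal protein genes (median 1226 nt), 9 were called lower with a median of −0.39. With the offset the medians were −0.38 and −0.13, with 9 and 6 called lower, so that the oxidative phosphorylation genes (−0.13) were near the mitochondrial and above the cytosolic ribosomal genes. The difference between these groups was not tested.

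Markers of other cell types moved with genotype, and their part in the results was not tested. Over all genes tested, 15.5% were called higher and 5.08% lower, and the lists are too small to be set against these shares. Of 6 spiral ganglion neuron markers 4 were called higher, and their summed normalised counts ran from 15173 to 38807 in Kir2.1-OE and from 7818 to 12593 in controls, with the highest value in Kir2.1-OE pool 3. Of 4 glial markers 1 was called higher (296405 to 387353 against 213817 to 270812), and of 6 supporting cell markers 2 were (99214 to 117052 against 80999 to 90462). Of 4 IHC markers 1 was called higher (8635 to 10274 against 6807 to 7548). Of 3 erythrocyte markers and of 3 melanocyte markers 1 each was called lower (337.8 to 508.1 against 504.3 to 1417, and 358.2 to 445.7 against 824.5 to 974.2). Of 6 skeletal muscle markers 3 passed the filter and 0 were called, their sum being 93.9 to 127.3 against 103.8 to 288.9, and Ckm had at most 9.03 in any library. The remaining lists were hair cell (2 of 5 higher, 1 lower), outer hair cell (2 of 3 higher), smooth muscle and pericyte (3 of 4 higher), macrophage (0 of 3) and brown fat (0 of the 1 tested of 2). The hair cell sum was 18654 to 28099 against 15673 to 17932. Most of it came from Calb2, which gave 12654 to 23168 in Kir2.1-OE and 9631 to 10903 in controls (log2 fold change 0.68). The other markers of that list did not move together. Myo7a was at 1.17, Pou4f3 at 0.05, Gfi1 at −0.25 and Pcp4, the one called lower, at −0.997. The smooth muscle and pericyte sum was 6035 to 6525 against 4265 to 4585. The outer hair cell sums overlapped, at 21913 to 27090 against 24093 to 30502, and Ocm, the most abundant marker of that list, was at −0.30 (adjusted p = 0.058). Of the melanocyte markers 2 were tested.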

How the data were processed

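Poly(A) RNA from 3 Kir2.1-OE and 3 control pools was sequenced as paired reads of 150 bases. The authors aligned the reads to mm10 within the nf-core RNA-seq pipeline and deposited expected counts per gene symbol and library, estimated by Salmon, which were not normalised; the annotation and tool versions are not given in the sources used here. These values were rounded before any test. The 24411 symbols were matched to GENCODE vM21 by symbol (23376) or older symbol (669), which gave transcript length and GC content.

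Genotype was tested in R 4.3.3 with edgeR 4.0.16 (TMM, filterByExpr, glmQLFit and glmQLFTest) on all 6 libraries with genotype as the only term, and p-values were adjusted by Benjamini-Hochberg over 15303 genes. Normalised counts are counts scaled to the mean effective library size. The offset was a loess fit (span 0.4) of each library's log ratio to the mean library on log length and GC content, which removes any difference that follows these properties whatever its origin, using, per gene, the longest of the transcripts that curated RefSeq entries match. Alternatives were DESeq2 1.42.0, limma-voom (limma 3.58.1), other scalings, filters and thresholds, a replicate block, and leaving out each library. In data simulated from these libraries (15212 genes), 90% of 200 changed genes were recovered with 11 unchanged genes called. The changed genes were drawn above a minimum mean count, and their change was larger than that of any member. The recovery therefore does not apply to changes of the members' size. With a length trend added (15206 genes), 1942 unchanged genes were called without and 6 with the offset. The added trend followed the same transcript lengths that the offset uses. This simulation therefore could not show how the offset treats a shift shared by a set of short transcripts. Libraries of one group differed by more than sampling noise, and each was counted as a replicate.

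Replicates are pools of different mice, so p-values measure the spread between pools. The members, the gene lists and the tests were chosen with earlier results of these data known. Genes were named as follows: Kcnj2; in each complex the member with the highest level per length and the 2 lowest and 2 highest log2 fold changes at a mean normalised count of at least 50; the isoform pairs; Sdha to Sdhd, Cyc1 and Cycs; and the lowest and highest gene of each other list. Further members were named to complete the account of a complex, after their values were seen. A single member is counted but not reported individually here.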

Additional observations from a re-analysis of the deposited data

How the results depend on the processing

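The count of members called lower (25) stayed between 24 and 26 and their median log2 fold change between −0.53 and −0.51 with DESeq2 size factors, library size alone, no filter, a minimum of 10 counts in every library, DESeq2 and limma-voom. With upper quartile scaling, which moved the median of all genes to −0.08 and the higher share of all calls from 75.2% to 57.9%, 51 members were called lower (complex I 26, II 2, IV 11, V 9). Without the fold threshold 78 were (complexes I to V: 32, 3, 9, 14 and 15), and a test against a log2 fold change of 0.6 gave 0 in total and 0 in each complex. With the length and GC offset 2 were called lower (complexes I, III and IV 0, complex V 1; median −0.13), likewise with the offset and the replicate block (2; 0, 0, 0 and 1; median −0.13) and, added after seeing the data, with length alone (2; 0, 0, 0 and 1; median −0.13). Also added later, the longest annotated transcript gave 5 (complex I 2, complexes II, III and IV 0; median −0.16) and the shortest curated transcript 1 (complexes I, III, IV and V 0; median −0.20). The cause of these shifts was not tested. Leaving out each library gave 8 to 44 members lower (complex I 2 to 23, II 0 to 2, III 1 to 3, IV 3 to 7, V 2 to 8). Differences in the log2 isoform ratios then ranged from −0.0340 to 0.20 (Cox4i2/Cox4i1), −0.81 to 1.18 (Cox6a2/Cox6a1), −0.22 to 0.0151 (Cox6b2/Cox6b1), −0.0229 to 0.16 (Cox7a1/Cox7a2), −0.11 to 0.29 (Cox8b/Cox8a) and 0.32 to 0.49 (Ndufa4l2/Ndufa4).

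Under the offset 23 members had positive log2 fold changes, and among the members named by the rule these were Cox5a (0.30), Cox8b (0.14), Ndufa4l2 (0.0944), Cox6b1 (0.0721), Cox7a1 (0.0609), Ndufs1 (0.056), Ndufa10 (0.0389), Ndufa4 (0.0137) and Cox6a1 (0.00074). With the offset and the replicate block they were 0.29, 0.12, 0.0953, 0.0724, 0.0717, 0.055, 0.0359, 0.0129 and 0.000152 in the same order. Pools with the same replicate number did not deviate together (correlations −0.09, −0.22 and −0.21 over genes), so the numbers were not taken to pair the pools; the header of the table of control pool 1 also carries another replicate number than its label, which bears on the first pair and on the block. The replicate block without an offset gave 26 members lower and changed no call on a named member.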
